A study of Mus musculus with 6 samples.

Results

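AGO2 clusters that lie on no annotated gene of their own strand were examined in chimeric AGO2 eCLIP libraries of postnatal day 0 (P0) whole mouse brain (C57Bl/6J). In chimeric eCLIP, RNA bound to AGO2 is crosslinked and immunoprecipitated (IP), and some reads join a miRNA to the RNA it was paired with. The WT group had 1 library and the *Mov10* Deletion group had 2, replicates 1 and 2. *Mov10* Deletion mice came from crosses of a floxed *Mov10* allele, removed by Cre from the *Emx1* promoter, with *Mov10* heterozygous mutants. *Emx1*-Cre acts in excitatory neurons and glia of the forebrain, while the whole brain was taken, so cells with and without Cre were pooled. Each IP was compared by the authors with its own size-matched input. The study asked whether AGO2 binding changes when MOV10, an RNA helicase, is lost, and it describes MOV10 in these mice as greatly reduced. On the strand of *Mov10* itself, AGO2 clusters numbered 11 in WT and 9 in each *Mov10* Deletion library, which is no measure of its expression and so no check of the labels. A cluster was chosen when it overlapped no RefSeq gene body on its own strand of mm10. These were 6908 of 359172 clusters in WT (1.92%, 95% interval 1.88 to 1.97%), 11139 of 616014 in *Mov10* Deletion replicate 1 (1.81%, 1.78 to 1.84%) and 11139 of 616005 in replicate 2 (1.81%). Another 1462, 2504 and 2503 clusters, in the same order, could not be placed because the gene under them had no known strand, and were set aside.

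AGO2 is the protein that carries a miRNA to its target. Pairing is led by the seed, bases 2 to 8 of the miRNA, and the usual result in animal cells is less translation and a shorter life of the target RNA. Most sites that are studied lie in the 3' end of mRNAs, but non-coding RNAs are bound too. The best known in brain is Cdr1as (ciRS-7), a circular RNA made from the strand opposite *Cdr1* that carries many sites for miR-7. *Oip5os1* (Cyrano), a long non-coding RNA, has a nearly full-length miR-7 site and is known to direct the decay of that miRNA. RNA that runs past an annotated gene end or starts outside genes is counted here by position alone.

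The mature miRNAs on which the results turn are shown first, from RefSeq, because their seeds set which sequences they can pair with. The seed is in capitals. miR-7a and miR-7b share the seed, and the RefSeq tables used here gave no entry for miR-124-3p or miR-466i-5p.
miR-7a-5p: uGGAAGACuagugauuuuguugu
miR-7b-5p: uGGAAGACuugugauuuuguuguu
miR-9-5p: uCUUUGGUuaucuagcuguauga
miR-125b-5p: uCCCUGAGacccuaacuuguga
let-7c-5p: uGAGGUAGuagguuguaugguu
miR-103-3p: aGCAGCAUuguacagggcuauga
miR-26a-5p: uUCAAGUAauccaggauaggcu
miR-671-5p: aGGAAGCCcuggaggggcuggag

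The strand opposite *Cdr1* held a dense run of miR-7 seed matches, and 300 bases of it are shown from the RefSeq sequence of mm10 (GRCm38.p6). This stretch, the plus strand of chrX:61185509-61185808, begins within *Cdr1* at its RefSeq start and runs past it. Capitals mark the 6 letters TCTTCC, which pair with bases 2 to 7 of miR-7.
chrX:61185509-61185808, plus strand: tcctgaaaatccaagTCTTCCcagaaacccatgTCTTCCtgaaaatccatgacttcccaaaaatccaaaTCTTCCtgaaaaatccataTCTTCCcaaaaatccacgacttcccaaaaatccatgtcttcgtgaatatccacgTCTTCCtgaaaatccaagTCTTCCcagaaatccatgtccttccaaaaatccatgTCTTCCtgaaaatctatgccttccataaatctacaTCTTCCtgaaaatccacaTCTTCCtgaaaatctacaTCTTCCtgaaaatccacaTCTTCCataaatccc
The stretch holds TCTTCC 11 times on this strand, and 5 of these are part of GTCTTCC, which pairs with the whole seed. Searched on both strands, TCTTCC was present in 27.4% of 32851 RefSeq promoter windows of the same length and GTCTTCC in 5.32%. In 1 of those windows, this one, TCTTCC was found as often on a single strand. The GENCODE transcript of *Cdr1* (1554 nt) read on its opposite strand holds GTCTTCC 79 times. The site in *Oip5os1* is shown from its longest GENCODE transcript (8683 nt, bases 3335 to 3341 in capitals), because the highest miR-7 score outside genes and away from *Cdr1* lay past this gene's RefSeq end. This transcript holds GTCTTCC 2 times, the match with the better pairing is shown, and it was not placed on mm10.
*Oip5os1* site: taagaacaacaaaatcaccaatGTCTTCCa
Beyond the seed, 14 of 15 bases of miR-7a pair with it and 1 is mismatched, with 2 extra target bases next to the seed match. These letters are found in 2 of 69 GENCODE transcripts of the gene.

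Each AGO2 cluster came with the log2 of its IP over input fold and the −log10 of a p-value for reads of that IP against its input. A cluster is called enriched below when both were at least 3, that is, at least 8-fold. This p-value compares 2 libraries and not conditions. With 1 WT library the spread among WT brains is unknown, no test between genotypes was run, and all values are set side by side. Intervals are exact (Clopper-Pearson) 95% intervals, which cover counting error only, and they are too narrow because adjoining clusters often share reads. The files hold no library totals, but reads could be inferred for 154 of 155, 606 of 607 and 355 of 358 enriched clusters with a −log10 p below its limit of 400 in WT, replicate 1 and replicate 2. Their median was 33, 13 and 11 IP reads, and over 1 input read the fewest IP reads that could be enriched were 16, 9 and 8. The *Mov10* Deletion lists therefore call clusters on fewer reads than the WT list. The *Mov10* Deletion replicates shared the coordinates of 11124 clusters outside genes, but of those enriched in replicate 1 only 15.6% were enriched in replicate 2, and 25.6% the other way (13.6% and 22.7% for clusters in genes). Only 4 of the WT clusters had the coordinates of a *Mov10* Deletion cluster.

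Clusters past gene ends were the class outside genes that was enriched most often. The enriched share of all clusters, in genes and outside, was 2.11% in WT, with 5.18% for *Mov10* Deletion replicate 1 and 3.10% for replicate 2. Outside genes, 181 clusters were enriched in WT (2.62%, 2.26 to 3.02%), 618 in replicate 1 (5.55%, 5.13 to 5.99%) and 376 in replicate 2 (3.38%, 3.05 to 3.73%). The interval lay above the share of all clusters in WT and included it in both *Mov10* Deletion libraries. Without the strand opposite *Cdr1*, described further on, the shares were 2.26% (1.92 to 2.64%), 5.48% (5.06 to 5.92%) and 3.23% (2.91 to 3.57%), and each interval included the share of all clusters. When at least 16 IP reads were asked for in each library, the shares outside genes were 2.61%, 1.89% and 1.06%. As 16 was also the fewest IP reads of an enriched WT cluster, this cut could hardly lower the WT share. No order of the genotypes is therefore read from it. The clusters fell into 3 classes, those opposite a gene (antisense), those within 5 kb past a gene end on the same strand (downstream), and other intergenic clusters. Antisense clusters made up 23.4%, 23.0% and 23.0% of those outside genes in WT, replicate 1 and replicate 2, and downstream clusters 24.3%, 23.2% and 23.2%. The remaining 52.3%, 53.8% and 53.8% were other intergenic.

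Downstream clusters were enriched in 77 of 1680 cases in WT (4.58%, 3.63 to 5.70%), 200 of 2580 in replicate 1 (7.75%, 6.75 to 8.85%) and 145 of 2580 in replicate 2 (5.62%, 4.76 to 6.58%). Clusters in genes, counted over whole gene bodies with introns and 3' ends not set apart, gave 2.09%, 5.16% and 3.09%. The downstream interval lay above this share in genes in every library. Whether it also lies above that of gene 3' ends was not tested, and the order below is that of downstream clusters and whole gene bodies. This order held when only clusters with at least 16 IP reads were called, with 4.52%, 3.45% and 2.02% downstream against 2.05%, 1.98% and 0.759% in genes. Without *Ankrd52* and *Oip5os1*, which ranked first by the share of enriched downstream clusters summed over the libraries, the downstream share was 3.75%, 7.11% and 5.07%. Antisense clusters were enriched in 2.29% (1.62 to 3.14%), 5.69% (4.83 to 6.66%) and 3.16% (2.52 to 3.91%), and other intergenic clusters in 1.86% (1.44 to 2.35%), 4.54% (4.02 to 5.09%) and 2.50% (2.12 to 2.93%). The intervals of the antisense class included the share in genes in each library, while those of other intergenic clusters included it in WT and lay below it in both *Mov10* Deletion libraries. Most downstream and antisense clusters were therefore not enriched, as in genes.

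**Figure D1:**
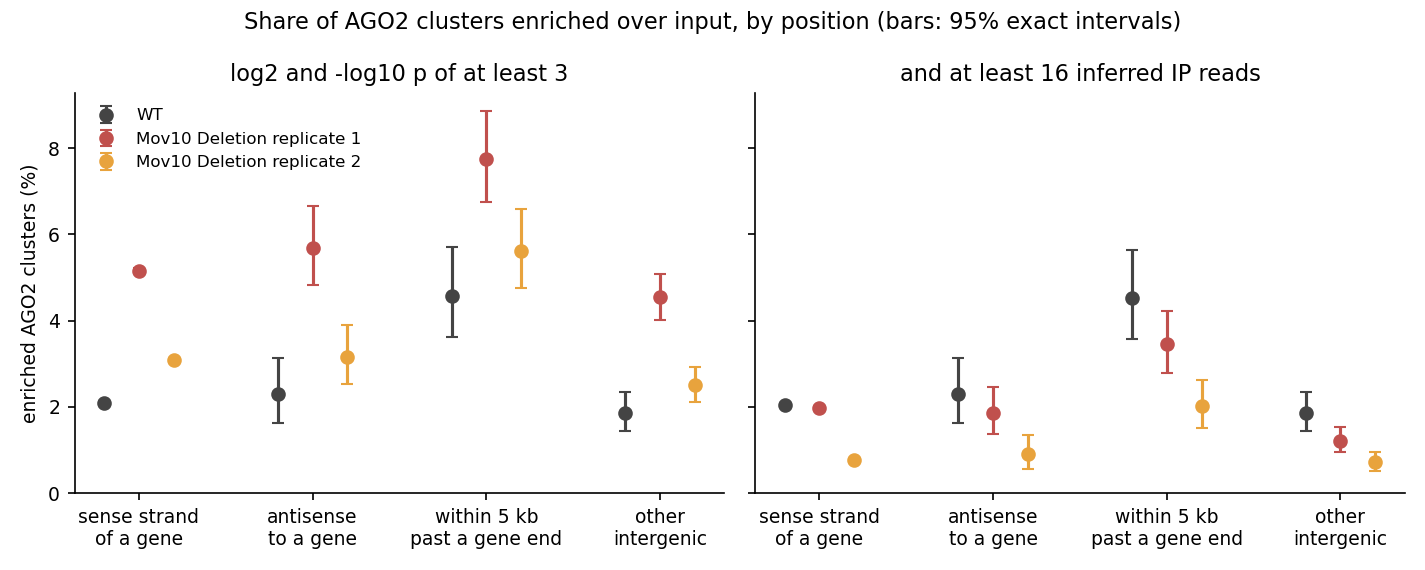
Share of AGO2 clusters that were enriched (%, log2 IP over input and −log10 p both at least 3) for clusters in genes and for the antisense, downstream and other intergenic classes, by library, with exact 95% intervals for counting error. Downstream clusters stand highest in each library, at 4.58%, 7.75% and 5.62%.

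The strand opposite *Cdr1* held more enriched antisense clusters than any other gene in WT and replicate 2, and as many as that opposite *Zfhx2* in replicate 1. *Cdr1* lies on the minus strand at chrX:61183246-61185558. On the plus strand over it and up to 1 kb around it, WT had 52 clusters (46 antisense and 6 other intergenic) and each *Mov10* Deletion library had 21 (17 and 4). Of these, 26 were enriched in WT (50%), 9 in replicate 1 (42.9%) and 17 in replicate 2 (81.0%). The log2 ran from 1.15 to 4.81 with a median of 3.14 in WT, from 1.74 to 4.12 with a median of 2.98 in replicate 1, and from 2.08 to 4.62 with a median of 3.42 in replicate 2. The ranges of the 3 libraries overlapped. The 52 WT clusters covered 1852 nt and the 21 of each *Mov10* Deletion library 1656 nt, so the WT stretch was cut into shorter clusters. Of these clusters, 27, 17 and 17 had a −log10 p at its limit of 400. On the strand of *Cdr1* itself, WT had no cluster and the *Mov10* Deletion libraries had 2 each, none enriched.

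In WT the enrichment fell into 2 runs with a gap between them. The limits of the segments below were not set in advance, so the counts describe the runs and do not test them. Counted from the lower end of *Cdr1*, 19 of 20 WT clusters in the first 1000 nt were enriched, with a median log2 of 3.78. From 1001 to 2100 nt none of 25 were, with a median of 1.85, and from 2101 to 3000 nt all 7 were, with a median of 3.90. In replicate 1, 8 of 12, 0 of 3 and 1 of 6 were enriched in the same segments, with medians of 3.31, 1.93 and 2.73. Replicate 2 gave 12 of 12, 1 of 3 and 4 of 6, with medians of 3.69, 2.26 and 3.42. The 300 bases shown above lie in the last segment, where WT had an enriched cluster at chrX:61185621-61185684 with a log2 of 3.90 and the *Mov10* Deletion libraries had chrX:61185607-61185761 with 2.98 and 3.33. The middle segment was lowest in every library. At the 21 shared coordinates replicate 2 was above replicate 1 each time, by 0.15 to 1.17 on the log2 scale with a median of 0.45. Over all 11124 shared coordinates outside genes it was above in 4343, with a median difference of −0.77.

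**Figure D2:**
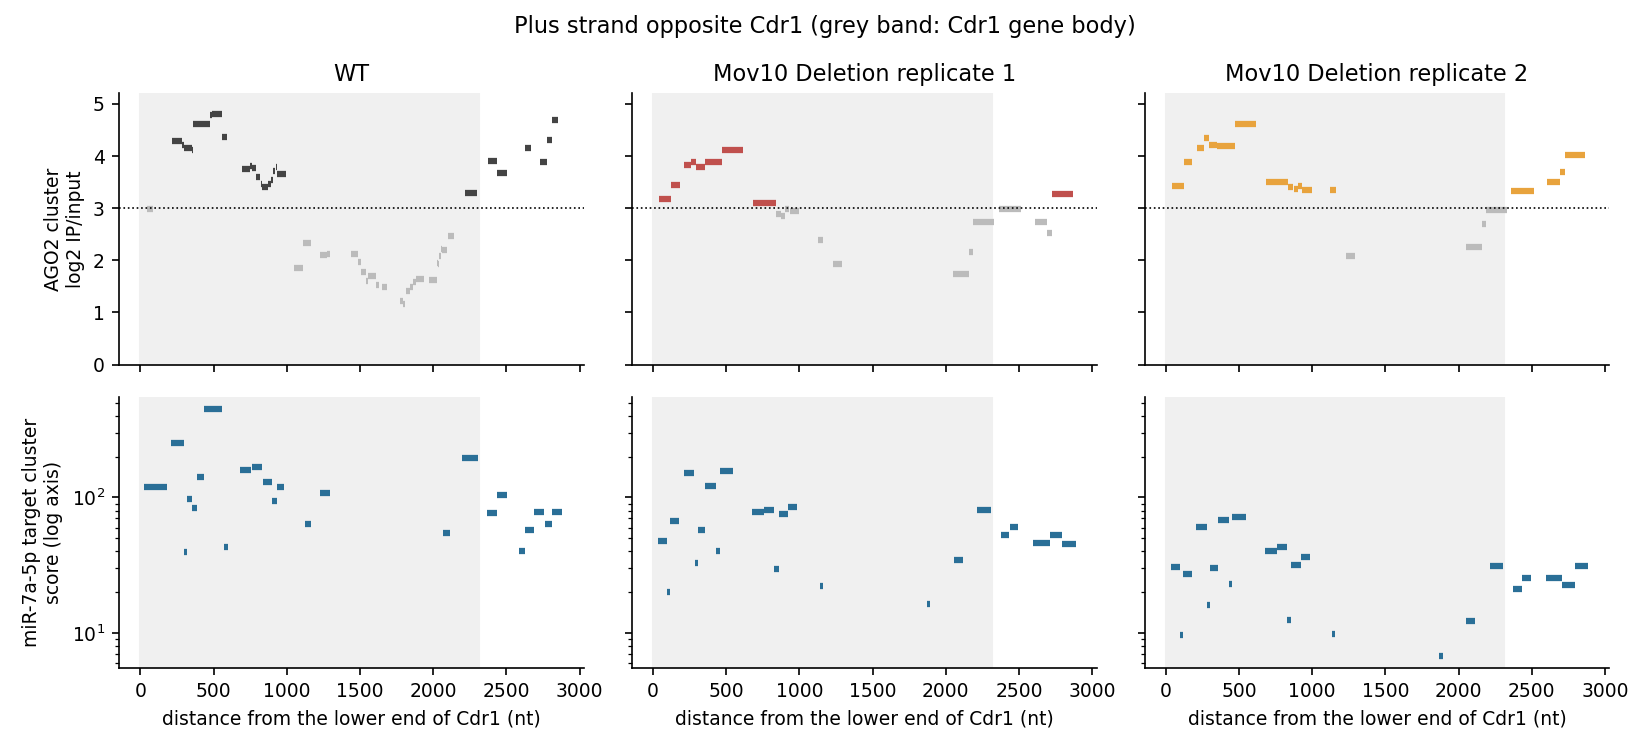
AGO2 clusters (log2 IP over input) and miR-7a target clusters (score) on the strand opposite *Cdr1*, against distance in nt from the lower end of the gene, with 1 panel for each library. Higher values stand in the first 1000 nt and beyond 2100 nt, and the log2 medians between are 1.85, 1.93 and 2.26.

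Target clusters, the places where the miRNA part of chimeric reads was joined to the genome, were all assigned miR-7 on this strand. There were 25 in WT and 23 in each *Mov10* Deletion library, and miR-7a was assigned to each. miR-7b was assigned to 25, 20 and 13 of them. The deposited score of miR-7a, whose scale the study's text does not describe and which was at least 3 for every target cluster, ran from 39.6 to 448 with a median of 98.2 in WT. In replicate 1 it ran from 16.4 to 155 with a median of 52.9, and in replicate 2 from 6.83 to 72.1 with a median of 27.4. For target clusters in genes the highest score of any miRNA also fell in this order, 3153, 1498 and 711, with medians of 4.64, 4.0 and 4.0. The number of miRNA assignments on this strand, 122, 89 and 63, fell in the same order. The highest score lay at chrX:61183679-61183805 in WT and chrX:61183701-61183795 in both *Mov10* Deletion libraries. The middle segment had 3 miR-7a target clusters in each library, against 14 in the first. Beyond the gene, chrX:61186007-61186059 had a miR-7a score of 63.8 in WT, and 52.9 and 31.2 were found there in the *Mov10* Deletion libraries.

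Other miRNAs shared these target clusters. miR-124-3p, the most abundant miRNA of neurons, was assigned to 16, 12 and 5 of them, and miR-125b-5p, common in neural cells, to 11, 7 and 6 with a highest score of 97.6, 48.7 and 18.5. miR-9-5p, a miRNA of neural progenitors and neurons, was assigned to 11, 6 and 4. miR-671-5p, known to pair with Cdr1as and direct its cleavage, was assigned to 3, 3 and 2, with a highest score of 22.5, 11.6 and 4.05. All of these counts were lowest in replicate 2, which also had the fewest target clusters in all.

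The miR-7 target clusters outside genes lay almost all on this strand. Of all miR-7 target clusters, 28 of 65 lay outside genes in WT (43.1%, 30.8 to 56.0%), 27 of 120 in replicate 1 (22.5%, 15.4 to 31.0%) and 25 of 60 in replicate 2 (41.7%, 29.1 to 55.1%). Opposite *Cdr1* were 25, 23 and 23 of them. In each library the 10 highest miR-7a scores lay outside RefSeq genes, though GENCODE places the strand opposite *Cdr1* in *Cdr1os*. The first miR-7a target cluster in a gene ranked 27 of 63, 15 of 105 and 18 of 57, with a score of 34.6, 52.2 and 22.

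Away from *Cdr1*, antisense enrichment was weaker in WT and varied between the libraries. Without its strand, 17 of 1571 antisense clusters were enriched in WT (1.08%, 0.632 to 1.73%), below the 2.09% in genes, and 5.42% and 2.67% in replicates 1 and 2. The clusters lay opposite 507 genes in WT and 646 in each *Mov10* Deletion library. In 4.33% of cases in WT and 4.76% in each *Mov10* Deletion library another cluster lay on the other strand at the same place, so that for most antisense clusters AGO2 signal was called on the antisense strand only. Among enriched antisense clusters this was 1 of 37, 6 of 146 and 3 of 81.

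Of the 10 genes that ranked first for antisense enrichment, *Cdr1* and *Gm41164* had enriched clusters in every library. Opposite *Gm41164*, a long non-coding RNA, 4 of 8 clusters were enriched in WT, 2 of 10 in replicate 1 and 1 of 10 in replicate 2, with a highest log2 of 4.51, 4.71 and 3.99. Opposite *Zfhx2*, which encodes a homeodomain zinc finger protein, 0 of 40, 8 of 63 and 1 of 63 were enriched. *Gm46875* had 0 of 47, 6 of 69 and 3 of 69, *Gm38505* 1 of 42, 0 of 65 and 3 of 65, and *Mfsd4a* 3 of 7, 1 of 13 and 0 of 13. *Zfhx2*, *Gm46875* and *Gm38505* had many clusters and few enriched ones, and *Zfhx2* differed more between the *Mov10* Deletion replicates than replicate 2 did from WT. *Ube3a* (chr7:59228750-59310837) is an imprinted ubiquitin ligase gene whose antisense RNA is known in neurons. On the other strand *Snhg14* (chr7:59272737-60450177) overlaps part of it, and clusters on *Snhg14* counted as in genes. Opposite the rest of *Ube3a* there were 45, 60 and 60 clusters with a median log2 of 0.29, 0.61 and 0.49. Of these, 0, 1 and 0 were enriched.

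At a few antisense places WT stood apart from both *Mov10* Deletion libraries, mostly in short clusters. Opposite *Ufl1*, which encodes a ligase of the ubiquitin-like protein UFM1, WT had no cluster and each *Mov10* Deletion library had 3, all enriched. The strongest, at chr4:25270859-25270866, was 8 nt wide with a log2 of 5.38 from 24 IP reads in replicate 1 and 5.69 from 65 in replicate 2. Opposite *Phlda1*, chr10:111507009-111507015 had 4.61 and 6.11, and chr8:120626005-120626030 had 4.80 and 6.98, again with no WT cluster. Opposite *Arhgdib*, chr6:136930651-136930684 had the highest log2 outside genes in WT, 6.73 from 126 IP reads, against −2.79 and 2.75. The WT cluster was 11 nt wide and the *Mov10* Deletion cluster over it 31 nt. Opposite *Mttp* and *Gm39002* the enriched WT clusters rested on 23 IP reads over 1 input read each. Opposite *Rnf214* both WT clusters were enriched and none of 2 was in either *Mov10* Deletion library. Replicate 2 reached a log2 of 3.06 there, but with a −log10 p of only 2.41. At chr9:45864052-45864153, opposite the same gene, miR-124-3p was assigned in all 3 libraries, with scores of 25.9, 14.5 and 11.8. Opposite *Tigit*, which encodes an immune receptor, miR-103-3p was assigned at chr16:43637991-43638105 with scores of 29.1, 23.4 and 10.8. On their own strand these places lie 1568 nt past the end of *Bace1* and 3599 nt past the end of *Zbtb20*, and were counted as antisense because that class was assigned first. Assigned the other way round, downstream clusters numbered 2106, 3265 and 3265 in place of 1680, 2580 and 2580. The *Rnf214* and *Tigit* places thus carried chimeric reads in every library with or without enrichment.

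Downstream clusters thinned out with distance from the gene end, while their enriched share did not fall steadily. They lay past 721 genes in WT and 831 in each *Mov10* Deletion library, at a median distance of 1563, 1570.5 and 1570.5 nt. Between 1 and 500 nt lay 18.5%, 19.8% and 19.8% of them, and 5.42%, 4.46% and 4.42% between 4501 and 5000 nt. The enriched share was highest of the 10 bins between 1001 and 1500 nt, with 8.33% (5.09 to 12.7%), 12.4% (8.98 to 16.6%) and 10.8% (7.59 to 14.8%). Without *Ankrd52* and *Oip5os1* it was 5.91%, 10.5% and 9.12% there, and the highest WT bin was then that between 3501 and 4000 nt, with 7.37%. Enriched downstream clusters were found past 37, 95 and 68 genes.

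**Figure D3:**
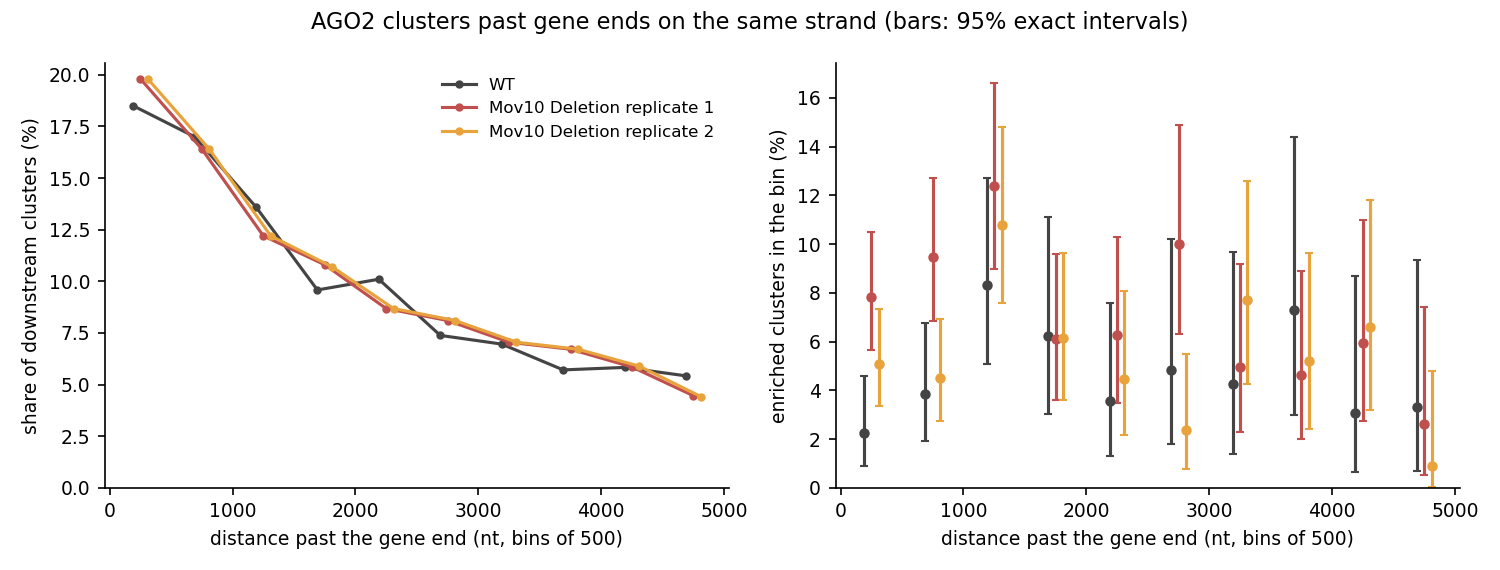
Downstream AGO2 clusters by distance past the gene end in bins of 500 nt, as the share of downstream clusters in each bin (%) and the share of each bin that was enriched (%, with exact 95% intervals for counting error), by library. The number of clusters falls with distance, and the enriched share peaks between 1001 and 1500 nt at 8.33%, 12.4% and 10.8%.

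The genes with downstream clusters were often longer in another annotation. Of 1053 such genes, 968 had a length in both RefSeq on GRCm38.p6 and GENCODE on GRCm39, and the GENCODE gene was longer by a median of 3164.5 nt. For 78.3% of them it was longer by at least 500 nt, against 27.8% of 38960 other genes, whose median difference was 8 nt. The other genes were not limited to protein-coding genes and were not matched for type, length or expression. Of the downstream clusters, 78.2%, 77.8% and 77.8% lay past protein-coding genes, so the 2 sets are unlike. For 709 of the 968 genes (73.2%) the difference was at least the distance to the farthest downstream cluster. Lengths were compared because no coordinates were converted, and the side on which the gene was longer was not tested. *Ankrd52* was longer by 14707 nt, *Oip5os1* by 7137 nt, *G3bp1* by 4273 nt and *Pias4* by 898 nt.

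*Oip5os1* (chr2:119594296-119600746, plus strand) had 16 downstream clusters in WT, of which 6 were enriched, and 25 in each *Mov10* Deletion library, of which 9 and 7 were. The highest log2 was 4.49, 5.47 and 4.02. The miR-7a target cluster began 1361 nt past the RefSeq end, at chr2:119602107-119602220 with a score of 94.8 in WT and at chr2:119602148-119602219 with 69.7 and 27.7 in replicates 1 and 2. The *Mov10* Deletion libraries had the place in 2 pieces, and the other piece, chr2:119602104-119602147, had 33.4 and 14.5. The place, by its higher-scoring piece, ranked 14, 9 and 12 among all miR-7a scores, and the 13, 8 and 11 above it all lay opposite *Cdr1*. The AGO2 cluster over it had a log2 of 2.92 in WT, 3.31 in replicate 1 and 2.91 in replicate 2, each with a −log10 p at the limit of 400. Replicate 1 alone passed the log2 minimum, although the 3 values were close. Just before it, the cluster at chr2:119601970-119602079 in WT had 4.05, and that at chr2:119601975-119602078 had 4.13 and 3.42. At chr2:119602434-119602470 replicate 1 had 5.47 and replicate 2 had 3.25. Among other miRNAs past this end, miR-137-3p was assigned in each library with scores of 12.8, 4.65 and 3.

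*Ankrd52* (chr10:128377124-128394006, plus strand), which encodes a subunit of a phosphatase known to act on AGO2, ranked first of all gene ends over the libraries. Of its downstream clusters 9 of 11 were enriched in WT, 10 of 10 in replicate 1 and 9 of 10 in replicate 2. Their log2 reached 5.36, 5.79 and 5.13 between 943 and 1464 nt past the end. The lowest of these clusters still had 2.93, 4.16 and 2.92, and the ranges of the libraries overlapped. miR-124-3p was assigned 312 to 395 nt past the end in all 3, with scores of 20.7, 9.78 and 5.94. miR-466i-5p was assigned at chr10:128395032-128395092 with 22.9 in WT and over the same place with 15.5 in replicate 1. miR-26a-5p was assigned in the *Mov10* Deletion libraries with 11 and 3.27, miR-103-3p in WT with 9.46, and let-7k in replicate 1 with 17.

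**Figure D4:**
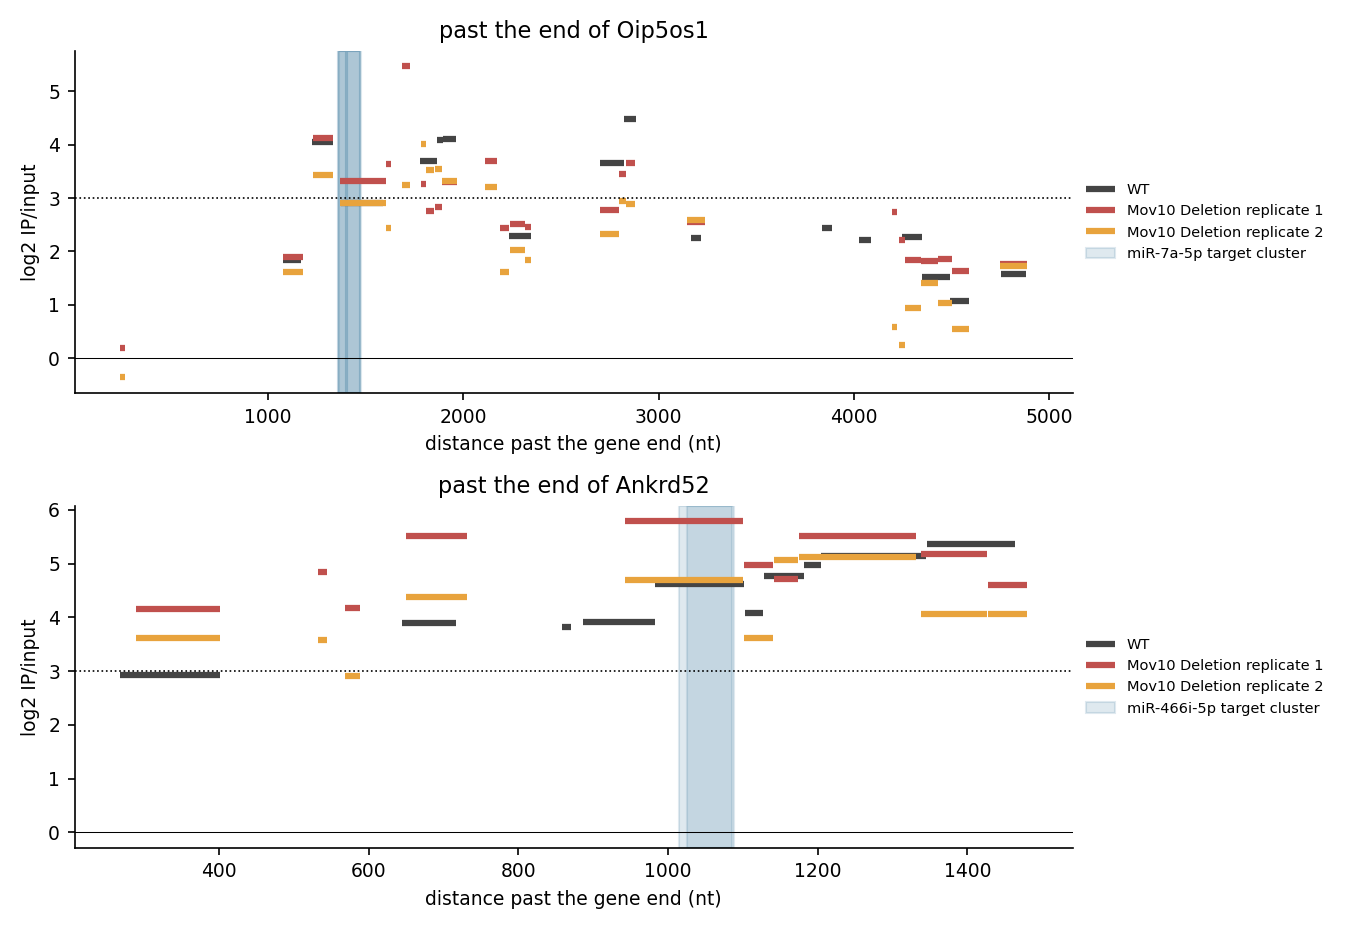
AGO2 clusters (log2 IP over input, as bars by library) past the ends of *Oip5os1* and *Ankrd52*, against distance in nt past the RefSeq gene end, with bands for the miR-7a target clusters of *Oip5os1* and the miR-466i-5p target clusters of *Ankrd52*. The dotted line is the log2 minimum of 3. The miR-7a target clusters of *Oip5os1* start near 1361 nt, and the enriched clusters of *Ankrd52* reach 5.36, 5.79 and 5.13.

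Other gene ends had enrichment in all 3 libraries. Past *Rp9*, 6 of 9, 8 of 10 and 4 of 10 clusters were enriched, with a highest log2 of 3.95, 4.75 and 5.34. Past *Rsc1a1*, which shares its end with *Ddi2*, 4 of 7, 10 of 16 and 6 of 16 were. Past *Zfp366*, which encodes a zinc finger corepressor, 3 of 3, 6 of 6 and 5 of 6 were. Within chr13:99247893-99248437 the log2 was 4.22, 4.02 and 4.06, but the replicate 1 cluster, chr13:99248342-99248437, overlapped neither of the others. At these 3 ends both genotypes had enriched clusters in each library.

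Past *Mir7652*, which itself lies past the end of the stress granule gene *G3bp1*, 3 of 5, 5 of 7 and 3 of 7 clusters were enriched. At chr11:55503314-55503454 the log2 was 5.51, 4.89 and 5.06, and at chr11:55502072-55502275 it was 4.08, 5.55 and 5.34. Past *Pias4*, which encodes a SUMO ligase, chr10:81153500-81153713 had 4.63 in WT from 88 IP over 3 input reads, 5.08 in replicate 1 from 39 over 2, and 7.04 in replicate 2 from 55 over 1. miR-125b-5p was assigned there with scores of 20 and 3.93 in WT and replicate 1 and not in replicate 2. Replicate 2 stood highest, on 1 input read.

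Further gene ends differed more between libraries. Past *Jph3*, which encodes a junctophilin that holds the endoplasmic reticulum to the cell membrane, 0 of 3 clusters were enriched in WT, 0 of 14 in replicate 1 and 11 of 14 in replicate 2, so the *Mov10* Deletion replicates were far apart. Past *Xylt1*, a xylosyltransferase gene of proteoglycan synthesis, 4 of 5, 3 of 9 and 1 of 9 were enriched, and past *Mir345* 4 of 9, 3 of 9 and 2 of 9. Past *Lnpep*, which encodes an aminopeptidase, 3 of 14, 3 of 15 and 4 of 15 were. *Lnpep* thus had enriched clusters in every library, though not at each place, as its cluster at chr17:17525311-17525362 had 4.51 in WT against 2.87 and 2.58.

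At 2 more places past a gene end that were enriched in WT alone, the *Mov10* Deletion libraries had clusters of lower log2. Past *Zfp652*, chr11:95768913-95769026 had 5.0 in WT from 38 IP reads, against 2.06 and 2.42. Past *Exoc5*, which encodes a subunit of the exocyst, chr14:49007319-49007469 had 4.84, against 2.38 and 2.84. In the other direction, chr5:127782298-127782349 past *Tmem132d* had 4.50 and 5.34 in the *Mov10* Deletion libraries and no WT cluster. Past *Cnnm2*, chr19:46882782-46882938 had 4.89 and 4.42, where WT had a log2 of 3.34 but a −log10 p of only 2.32. Past *Tram2*, chr1:20997148-20997287 had 4.12 and 4.42 against 2.08. For *Cnnm2* the libraries were told apart by the p-value minimum and not by the fold minimum.

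miR-124-3p led the assignments past gene ends, with 40.4%, 31.4% and 40% of them. At chr10:31500797-31500901 past *Rnf217* miR-124-3p had scores of 45.5, 17.2 and 9.97 in WT, replicate 1 and replicate 2. At chr3:108554619-108554722 past *Tmem167b* it had 45.3, 29.7 and 8.61. Past *Gna12*, which encodes a G protein subunit, it had 48.3, 16.3 and 7.71. miR-26a-5p was assigned past *Mmp16*, a membrane metalloprotease gene, at chr4:18118376-18118474 with 18.5, 9.94 and 7.90, and let-7c-5p past *Zfp652* with 11.9, 9.89 and 5.79. Past *Lnpep*, at chr17:17526487-17526610, miR-124-3p had 8.68, 7.83 and 8.78, so the libraries were close there and replicate 2 stood highest, while at the other places named WT did. The median score of target clusters outside genes was 5.39, 4.61 and 4.17.

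Other intergenic clusters often lay far from any gene, in long runs. Their median distance to the nearest gene on the same strand was 20970 nt in WT and 22541 nt in both *Mov10* Deletion libraries, and 24.1%, 25.1% and 25.1% were over 50 kb away. When clusters outside genes within 20 kb on the same strand were joined, a grouping chosen after the values were seen, the 10 runs with the most clusters held 17.2%, 17.3% and 17.3% of all clusters outside genes. They were seldom enriched, at 0.841%, 3.42% and 1.92%. The largest, chr3:34184629-34559863 ahead of *Sox2ot*, a non-coding RNA that overlaps the stem cell gene *Sox2*, held 458 clusters in each *Mov10* Deletion library, of which 15 and 12 were enriched, and fewer in WT, of which 2 were. The next, chr9:117630120-117919129 ahead of *Rbms3*, which encodes an RNA-binding protein, held 250, 456 and 456, with 2, 16 and 11 enriched. A run past *Mir99ahg*, the host of a miRNA group with let-7c, held 157, 237 and 237, with 0, 2 and 1 enriched. A run past *Mir137* held 110, 111 and 111, and none were enriched. GENCODE gave *Sox2ot* 513458 nt more than RefSeq, *Mir99ahg* 386471 nt and *Rbms3* 242768 nt.

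A few other intergenic places were strongly enriched in each library. Ahead of *Rbms3*, chr9:117680877-117681069 had a log2 of 6.30, 4.23 and 5.42. miR-124-3p was assigned within it with scores of 31.2, 29.3 and 11. Between *Tmem42* and *Tgm4*, chr9:123029802-123030053 had 5.54, 3.89 and 4.42. Its *Mov10* Deletion values came from separate clusters, chr9:123029840-123029915 in replicate 1 and chr9:123029916-123029998 in replicate 2. The adjoining chr9:123029544-123029801 had 5.04 in WT and only 2.67 and 2.25. Both stretches adjoin, and at both WT had the highest value.

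Among the other places enriched in every library, chr2:13893842-13893856 had 4.80, 6.08 and 6.01 in clusters of 5 to 14 nt, and chr18:81086251-81086277 had 4.40, 4.89 and 4.95. chr2:98662833-98662951, in a part of mm10 known for high signal in many kinds of sequencing, had 4.46, 4.61 and 3.69. There the *Mov10* Deletion values came from separate clusters, chr2:98662833-98662900 in replicate 1 and chr2:98662901-98662951 in replicate 2. Of the places where both *Mov10* Deletion replicates but not WT were enriched, chr2:37330188-37330192 had 4.50 and 5.71 over 5 nt, chr5:28782018-28782043 had 4.12 and 4.25 against 2.93, and chr7:62195137-62195201 had 3.97 and 4.25 from 9 and 8 IP reads. These were short or rested on few reads. Those enriched only in WT included chr3:104442444-104442472 with 4.77 against −3.20 and −1.92 and chr4:108310871-108310897 with 4.70 from 277 IP reads against −0.94 and 1.78. At both of these the log2 was below 0 in at least 1 *Mov10* Deletion library. Their WT clusters were short too, 18 and 10 nt wide, against 23 and 25 nt in the *Mov10* Deletion libraries. At chr12:109676904-109677001, 15188 nt past the imprinted non-coding RNA *Rian*, miR-9-5p was assigned with 41.1, 20.5 and 23.4.

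Joined over the libraries, the clusters outside genes formed 15640 places. Of these, 131 were enriched in WT, 568 in replicate 1 and 336 in replicate 2. In all 3 libraries 38 were enriched, 20 downstream, 15 other intergenic and 3 antisense. The *Mov10* Deletion replicates both had enrichment at 37 more, where WT had none, and WT alone at 69. Enriched in a single *Mov10* Deletion library were 477 places for replicate 1 and 253 for replicate 2. Of the WT places, 47.3% were enriched in at least 1 *Mov10* Deletion library, with 56.9% of those downstream, 43.4% of the other intergenic and 30% of the antisense. Places enriched in 1 replicate alone thus outnumbered those shared by both. Of the 181 enriched WT clusters, 85.6% overlapped some *Mov10* Deletion replicate 1 cluster outside genes, enriched or not, against 28.6% of all WT clusters outside genes. Places were not counted in this way for clusters in genes, so these counts are not read as particular to clusters outside genes.

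Target clusters outside genes were 341 of 18029 in WT (1.89%, 1.70 to 2.10%), 474 of 27152 in replicate 1 (1.75%, 1.59 to 1.91%) and 200 of 12379 in replicate 2 (1.62%, 1.40 to 1.85%). These intervals overlapped. Past gene ends lay 0.948%, 0.700% and 0.565% of all target clusters, with intervals of 0.812 to 1.1%, 0.604 to 0.806% and 0.441 to 0.714%, so the WT interval lay above those of both *Mov10* Deletion libraries. The other classes together did not share this order, as other intergenic target clusters were 0.571%, 0.641% and 0.727%. Whether the downstream difference goes with genotype or with the library could not be told apart with 1 WT library.

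Enriched AGO2 clusters outside genes overlapped a target cluster more often than those not enriched. This was so for 43.1% of the enriched clusters in WT (35.8 to 50.6%), 10.5% in replicate 1 (8.21 to 13.2%) and 10.4% in replicate 2 (7.48 to 13.9%), against 2.82%, 1.68% and 0.743% of the others. Without the strand opposite *Cdr1* the enriched clusters gave 33.5% (26.2 to 41.6%), 9.20% (7.02 to 11.8%) and 6.13% (3.88 to 9.13%), and the others 2.75%, 1.59% and 0.725%. In genes, 37.7%, 11% and 8.66% of enriched clusters overlapped one, values that lie within these intervals. Downstream the shares were 50.6%, 18.5% and 8.28%, antisense 62.2%, 8.22% and 17.3%, and other intergenic 23.9%, 5.88% and 8.67%. The antisense shares rested on the strand opposite *Cdr1*, without which 3 of 17 enriched clusters overlapped one in WT (17.6%, 3.8 to 43.4%), 4 of 138 in replicate 1 (2.90%, 0.795 to 7.26%) and 1 of 68 in replicate 2 (1.47%, 0.0372 to 7.92%). In every library most enriched clusters therefore had no target cluster over them, both in genes and outside genes as a whole. The number of reads behind an enriched cluster, 33, 13 and 11 at the median, moved with the overlap share, and its part was not tested.

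The most frequent miRNA families took similar shares outside genes and in genes once the strand opposite *Cdr1* was left out. miR-124-3p made up 34.8%, 30.3% and 29.3% of the 488, 581 and 249 assignments outside genes, and 42.1% (37.0 to 47.3%), 33.3% (29.2 to 37.7%) and 36.6% (29.6 to 43.9%) without the strand opposite *Cdr1*. In genes it made up 42.4%, 35.0% and 37.0%. miR-7 made up 11.1%, 8.26% and 15.7% outside genes and 0.196%, 0.332% and 0.266% in genes. Without the strand opposite *Cdr1* its share outside genes was 1.09% (0.299 to 2.77%), 1.02% (0.331 to 2.36%) and 1.61% (0.334 to 4.64%). These rest on 4, 5 and 3 assignments, of which 2, 3 and 3 lay past *Oip5os1*. miR-9-5p made up 8.47%, 6.71% and 6.99% without that strand, against 9.14%, 6.66% and 6.87% in genes. let-7 and miR-98 made up 7.10%, 8.54% and 9.68%, against 9.62%, 9.82% and 8.76%, and miR-125a-5p and miR-125b-5p 6.83%, 7.72% and 4.84%, against 6.45%, 6.07% and 5.89%. For the miR-124, miR-9-5p, let-7 and miR-125 families the interval outside genes without that strand included the share in genes in every library. The miR-466 family was counted together with miR-467, miR-669 and a further related family. Outside genes without that strand it made up 9.29% (6.52 to 12.7%), 8.74% (6.40 to 11.6%) and 6.99% (3.77 to 11.7%). In genes it made up 6.77%, 7.21% and 7.27%, which these intervals included. Downstream it made up 7.39%, 5.24% and 5.33%. In the antisense class alone, without that strand, it made up 16.7% of 54 assignments in WT (7.92 to 29.3%) and 14.3% of 98 in replicate 1 (8.04 to 22.8%). In replicate 2 it had 0 of 23, with an exact interval that reaches 14.8%.

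**Figure D5:**
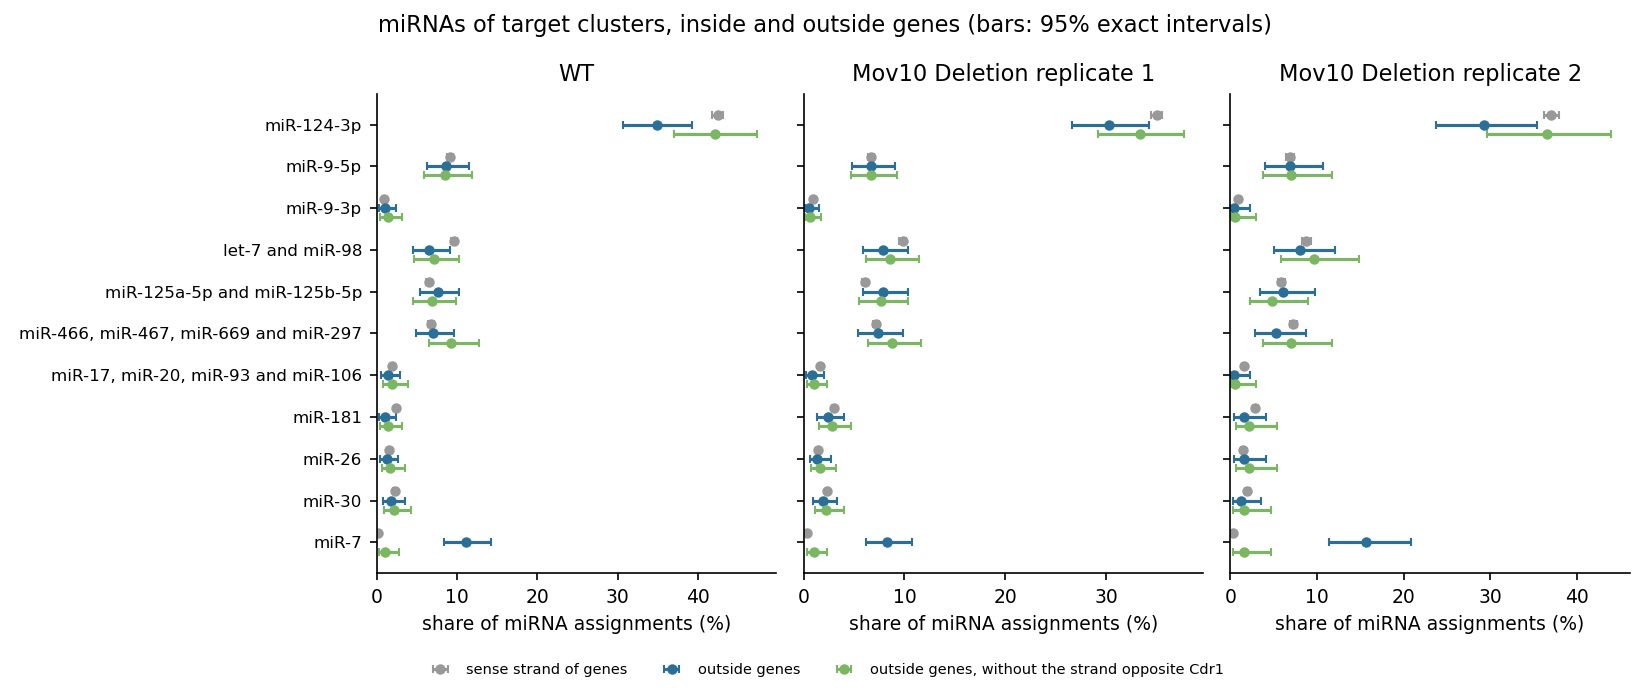
Share of miRNA assignments (%, with exact 95% intervals for counting error) by miRNA family, in genes, outside genes and outside genes without the strand opposite *Cdr1*, with 1 panel for each library. miR-7 stands apart outside genes at 11.1%, 8.26% and 15.7% and falls to 1.09%, 1.02% and 1.61% without that strand.

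Few genes of the study's themes had clusters past their ends, as was so for protein-coding genes in general. None of 15 microtubule and cytoskeleton genes and none of 14 synapse and channel genes had a downstream cluster. Of 23 genes for RNA-binding proteins, *Ago2* and *Nova1* had downstream clusters in all 3 libraries, and 1 of them, *Ago2*, had an enriched one, in replicate 2 with a log2 of 3.42. Of 18 neural transcription factors, *Neurod1* had a downstream cluster, in WT. Among all 21478 protein-coding genes with a known strand, 821 had one (3.82%) and 122 an enriched one. With lists of this size no difference from that share was read.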

How the data were processed

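AGO2 chimeric eCLIP libraries of P0 mouse brain were analysed from the deposited clusters. Per the methods, the authors clipped adapters with cutadapt 3.2, set aside repeat and rRNA reads, aligned the rest to mm10 by STAR 2.7.7a, collapsed duplicates with UMI-tools 1.1.1, called clusters with CLIPper and compared each with its input. For every AGO2 cluster the authors deposited a log2 fold of IP against input. They also deposited the −log10 of a p-value, which stops at 400. For chimeric reads they matched miRNAs with Bowtie 1.2.3 and deposited a score for each target cluster. These versions are from the submitters' processing notes. Whether the *Mov10* Deletion clusters were called on pooled brains is not given in the sources used here.

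Clusters were placed on 49980 RefSeq gene bodies of GRCm38.p6, of which 45322 had a strand, 28097 from RefSeq tables and 17225 from GENCODE on GRCm39 by name. Antisense was assigned before downstream, and any overlap of at least 1 nt counted. No exon positions on mm10 were used here. IP and input reads were inferred as the whole numbers that give both the fold and the p, with an error in the p of at most 0.001. No test was run across clusters or between groups. The genes named are the 10 past whose ends, and the 10 opposite which, lay the largest summed shares of a library's enriched clusters. Of the latter, 1 is not reported here. The places named are, in each class, those with the highest lowest log2 among places enriched in all 3 libraries (5) or in both *Mov10* Deletion libraries only (3), the highest log2 in WT only (3), and the highest lowest score (3). Places and genes beyond these were chosen after their values were seen. The log2 given for a place in each library is that of 1 cluster within it, whose coordinates can differ between libraries. The members, lists and alternatives were chosen with earlier results of these data known. Python 3.11.15, pandas 2.3.3, numpy 2.4.6, scipy 1.17.1 and matplotlib 3.10.9 were used.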

Additional observations from a re-analysis of the deposited data

How the results depend on the processing

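Values are given for WT, *Mov10* Deletion replicate 1 and replicate 2 in that order. The share of clusters outside genes rose to 2.32%, 2.20% and 2.20% when genes without a strand were ignored and to 4.75%, 4.55% and 4.55% when only protein-coding genes counted. The enriched share of these clusters was 1.97%, 2.06% and 1.52% at a −log10 p minimum of 5, 4.10%, 7.13% and 4.28% with a log2 of at least 2, and 2.00%, 4.67% and 2.79% with adjoining clusters merged, an alternative chosen after seeing the data. With at least 16 inferred IP reads it was 1.89% and 1.06% in the *Mov10* Deletion replicates and 2.61% in WT. The order of WT and *Mov10* Deletion thus turned, but this cut equals the fewest IP reads of an enriched WT cluster and could hardly lower the WT share. At a −log10 p minimum of 5 the order turned in replicate 2 only. A window of 2 kb left 985, 1526 and 1526 downstream clusters. The share of target clusters outside genes was 2.23%, 1.97% and 1.97% with a score of at least 5 and 2.39%, 2.19% and 2.12% when genes without a strand were ignored. Without the strand opposite *Cdr1*, also chosen after seeing the data, 33.5% and 6.13% of enriched clusters overlapped a target cluster in WT and replicate 2, down from 43.1% and 10.4%. Places enriched in all 3 libraries numbered 38, 49 when an overlap of at least 50% of the shorter cluster was needed, and 33 at a −log10 p minimum of 5. Leaving out a *Mov10* Deletion replicate gave 46 to 54 of them, and 1.81 to 1.81% for the share of clusters outside genes in that group. No paired analysis was possible because no test was run and the single WT library shares its replicate number with only 1 *Mov10* Deletion library. Enriched clusters in the *Mov10* Deletion libraries rested on fewer reads than in WT, which limits what their larger counts show.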
